A study of Homo sapiens with 8 samples.

Results

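The genes described here encode the core of Mediator and the factors that act on RNA polymerase II during early elongation. They were taken by symbol: 26 core Mediator subunits and 14 elongation factors (NELF, DSIF, SPT6, FACT, TFIIS and the PAF complex), 40 symbols in all. Of these, 38 had a probe set annotated with that gene alone, among 18417 genes measured, and are described (24 of Mediator and 14 of elongation). MED6, a head subunit, and MED25, a tail subunit, were not analysed here. RNA came from HCT116, an established human colorectal carcinoma line, and was measured on 8 Affymetrix human gene arrays, 1 per sample. The groups were shCDK8 cells starved of serum for 40 h, shControl cells starved in the same way, shCDK8 cells starved and then given medium with 10% fetal bovine serum for 30 min, and shControl cells given the same serum, with 2 arrays each. All cells carried a short hairpin RNA, directed in the shCDK8 cells against CDK8, the kinase of the Mediator kinase module. Each arm is labelled with 1 hairpin, so loss of CDK8 and other differences between the lines cannot be told apart. The labels do not say that duplicates were separate cultures. The p-values rest on the spread between duplicates, and that spread may be technical. In RNA from whole cultures, fewer expressing cells and less RNA per cell cannot be told apart.

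Mediator is the large complex that passes signals from transcription factors to RNA polymerase II. Its head and middle contact the polymerase, the tail receives most activators, MED14 joins the modules, and the kinase module with CDK8 binds reversibly. After initiation the polymerase pauses near the promoter, held by DSIF and NELF. Release by P-TEFb removes NELF and leaves DSIF, the PAF complex and SPT6 travelling with the polymerase, while FACT takes nucleosomes apart and rebuilds them and TFIIS restarts backtracked polymerase. Immediate-early genes, which serum induces, are a standard example of control at the pause.

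Levels below are log2 probe set summaries, which are not comparable between genes, and differences are on the same log2 scale with the standard error of the model. The median over all probe sets lay between 6.44 and 6.51 on every array, and r between duplicates, across genes, was 0.997 to 0.998. The probe set for CDK8, which the annotation pairs with ADRA1B as well, read 7.09 and 6.99 in starved shCDK8 arrays, against 9.23 and 9.20 in starved shControl arrays. FOS, an immediate-early gene, read 11.16 and 11.39 in serum-treated shCDK8 arrays, against 7.42 and 7.63 in starved shCDK8 arrays. It read 12.12 and 12.04 in serum-treated shControl arrays, against 8.85 and 8.70 in starved shControl arrays. The epithelial markers EPCAM and CDH1 read 11.68 to 11.83 and 9.30 to 9.59. Among the 13 epithelial markers KRT20, VIL1, GPA33 and CEACAM5 read 4.94 to 6.29. The 7 measured blood and endothelial markers lay between 3.53 and 6.23. The 6 fibroblast markers lay between 3.20 and 8.50, with COL1A1 the highest. None of these 13 blood, endothelial and fibroblast markers passed the test between the lines at either time. Of the 13 epithelial markers 4 passed in starved cells, 2 higher and 2 lower in shCDK8 cells. After serum 5 passed, 3 higher and 2 lower. Of all genes 13.4% passed in starved cells and 14.2% after serum. With serum, in the mean of both lines, COL1A1 was higher by 0.34 (limma adjusted p = 0.0292). The epithelial marker CLDN4 was higher by 0.37 (0.008), and it also passed in shControl cells (0.0496). Of all genes 0.76% were called in that mean. The part of COL1A1 and CLDN4 in the results was not tested.

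The promoters of the members with the clearest differences are shown so that their layout can be read beside the values. Each run is the 250 bases before the RefSeq start in GRCh38.p14, read 5′ to 3′ on the gene's strand. Capitals mark, on either strand, CCAAT boxes (CCAAT), GC boxes (GGGCGG), the ETS-type motif CCGGAAG, the CRE half-site TGACG, the NRF1-type core TGCGCA and TATA boxes (TATAAA). SUPT4H1, which was higher in shCDK8 cells, lies at chr17:58352202-58352451 on the minus strand, and NELFCD and SSRP1, which were lower, at chr20:58981006-58981255 (plus) and chr11:57335893-57336142 (minus). The MED29 window, chr19:39391128-39391377 (plus), is shown because PAF1 starts just before it in the opposite direction, so that 229 of these bases also lie upstream of PAF1, and both genes were lower.
SUPT4H1: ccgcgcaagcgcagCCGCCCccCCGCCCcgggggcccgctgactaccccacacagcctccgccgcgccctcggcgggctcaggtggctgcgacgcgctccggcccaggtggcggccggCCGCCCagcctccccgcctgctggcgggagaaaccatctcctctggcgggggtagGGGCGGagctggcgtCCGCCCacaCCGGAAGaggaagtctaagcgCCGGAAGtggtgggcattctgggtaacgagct
NELFCD: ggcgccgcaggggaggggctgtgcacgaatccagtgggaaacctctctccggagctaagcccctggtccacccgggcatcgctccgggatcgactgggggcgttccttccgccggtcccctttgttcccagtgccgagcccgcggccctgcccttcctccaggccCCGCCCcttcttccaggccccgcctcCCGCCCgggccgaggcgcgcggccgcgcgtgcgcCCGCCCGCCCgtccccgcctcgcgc
SSRP1: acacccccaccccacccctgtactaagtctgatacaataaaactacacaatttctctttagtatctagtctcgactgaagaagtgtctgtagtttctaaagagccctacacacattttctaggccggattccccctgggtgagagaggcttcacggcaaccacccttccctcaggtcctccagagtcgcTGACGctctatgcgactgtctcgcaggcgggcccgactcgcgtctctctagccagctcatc
MED29: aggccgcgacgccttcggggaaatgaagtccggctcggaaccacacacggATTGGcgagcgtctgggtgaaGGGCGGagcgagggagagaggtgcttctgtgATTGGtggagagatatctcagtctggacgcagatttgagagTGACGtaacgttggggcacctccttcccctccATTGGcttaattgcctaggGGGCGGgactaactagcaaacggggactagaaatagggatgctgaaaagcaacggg
The SUPT4H1 window held 5 GC boxes and 2 ETS-type motifs. NELFCD held 4 GC boxes, 2 of which overlap each other, and none of the other motifs. SSRP1 held 1 CRE half-site alone, and the MED29 window 3 CCAAT boxes, 2 GC boxes and 1 CRE half-site. No TATA box was found in these 4 windows. Promoters were listed for 31 of the 40 symbols, and GC boxes occurred in 20 of them (64.5%), against 57.5% of the 14239 promoters of measured genes. The ETS-type motif occurred in 9 (29.0%) against 12.1%, the CRE half-site in 13 (41.9%) against 26.0%, the CCAAT box in 7 (22.6%) against 34.4%, the NRF1-type core in 3 (9.68%) against 9.25% and the TATA box in 2 (6.45%) against 8.6%. These shares describe letters in a window and were not tested.

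The first comparison set shCDK8 against shControl cells, which asks whether the rest of the machinery changed in cells with low CDK8. The differences were small. No member differed by 1.5-fold at either time, and the largest difference was that of SUPT4H1, 1.42-fold in starved cells. By limma's test with Benjamini-Hochberg adjustment over all genes (adjusted p below 0.05), 2 members were higher and 3 lower in starved shCDK8 cells, 5 of 38 (13.2%), where 13.4% of all genes were called, 7.13% higher and 6.28% lower. After serum 1 was higher and 4 lower, again 5 of 38, where 14.2% of all genes were called, 7.7% higher and 6.54% lower. Both shares are near the background. In the mean of both times 3 were higher and 9 lower, 12 of 38 (31.6%), where 23.3% of all genes were called, 12% higher and 11.3% lower. The median difference in that mean was -0.07 over the 38 members and -0.01 over all genes, and the median of absolute differences 0.12 and 0.08. The mean of both times uses the same arrays as the first and second comparisons and does not stand apart from them.

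**Figure D1:**
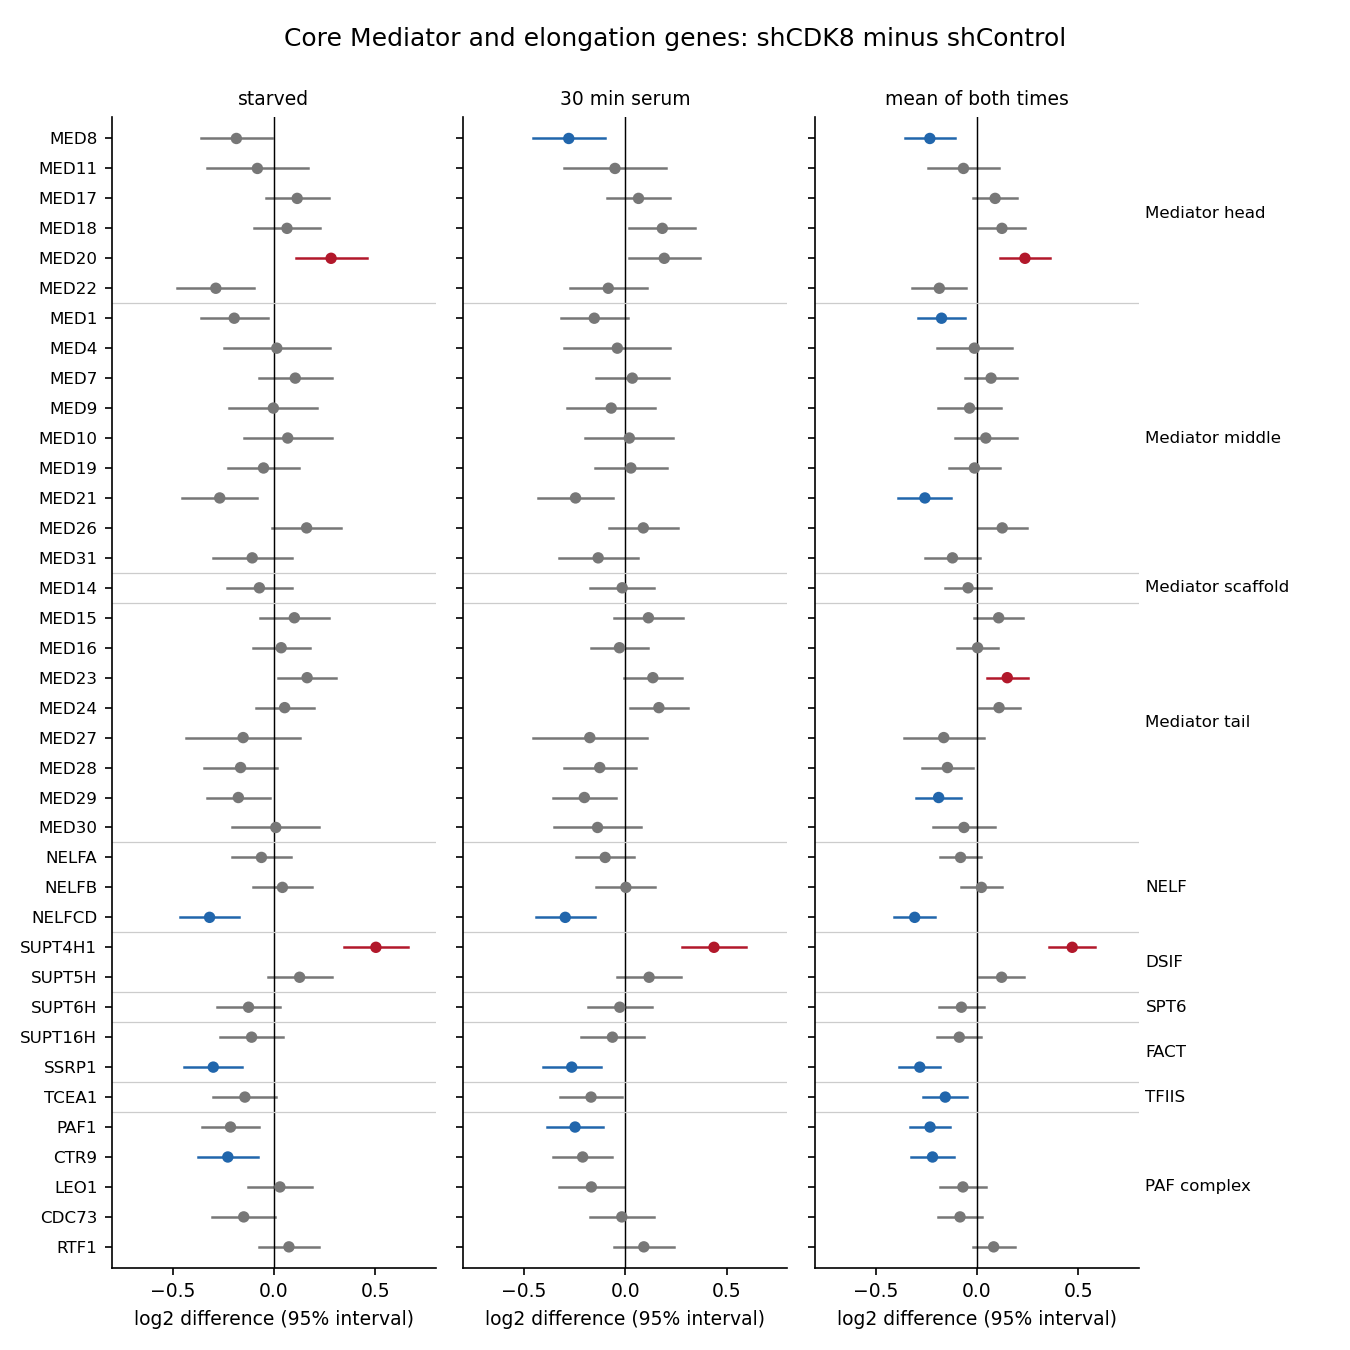
Difference between shCDK8 and shControl cells (log2, x axis) for each of the 38 measured genes (rows, grouped by complex), starved, after 30 min of serum and as the mean of both times. Points are the fitted differences, lines their 95% intervals without adjustment for many genes, red marks genes called higher in shCDK8 cells, blue those called lower and grey those not called; SUPT4H1 lies farthest right in each panel, at 0.50, 0.44 and 0.47.

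DSIF holds the paused polymerase and later helps it along, and its small zinc-binding subunit SUPT4H1 gave the clearest difference of all members. SUPT4H1 read 10.18 and 10.27 in starved shCDK8 arrays, against 9.73 and 9.71 in starved shControl arrays. After serum it read 10.12 and 10.26 in shCDK8 arrays, against 9.77 and 9.75 in shControl arrays. All 4 shCDK8 arrays were above all 4 shControl arrays. The difference was 0.50 ± 0.07 (SE) in starved cells (1.42-fold, limma adjusted p = 0.00135) and 0.44 ± 0.07 after serum (1.35-fold, adjusted p = 0.00297). Over both times it was 0.47 ± 0.05 (95% interval 0.36 to 0.58, adjusted p = 1.16e-04). The call stood in all 3 comparisons under every alternative run, leave-outs included. SUPT5H, the large DSIF subunit that binds the polymerase, read 9.01 and 9.08 in starved shCDK8 arrays against 8.86 and 8.98 in starved shControl arrays, and 9.05 and 9.02 against 8.88 and 8.95 after serum. Its shCDK8 arrays were also above all shControl arrays, by 0.12 ± 0.05 over both times, which did not pass (adjusted p = 0.116). The gap between the DSIF subunits was not tested.

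NELF keeps the polymerase at the pause, and NELFCD, which encodes its C or D subunit, was lower in shCDK8 cells. NELFCD read 10.04 and 10.10 in starved shCDK8 arrays, against 10.41 and 10.35 in starved shControl arrays. After serum it read 10.13 and 10.13 in shCDK8 arrays, against 10.45 and 10.40 in shControl arrays. The lines did not overlap at either time. The difference was -0.32 ± 0.06 in starved cells (1.25-fold lower, limma adjusted p = 0.0101), -0.30 ± 0.06 after serum (adjusted p = 0.0131) and -0.31 ± 0.05 over both times (adjusted p = 8.94e-04). The call in starved cells ended without starved array 1 of shCDK8 (adjusted p = 0.0735) or of shControl (0.0623). The call after serum ended without serum array 1 or 2 of shCDK8 (0.059 and 0.0633) or of shControl (0.0964 and 0.0533). The call over both times stood in every alternative. NELFA and NELFB, the other measured NELF subunits, differed by -0.08 and 0.02 over both times and did not pass (adjusted p = 0.258 and 0.793).

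FACT is the histone chaperone made of SSRP1 and SUPT16H. SSRP1 read 10.72 and 10.71 in starved shCDK8 arrays, against 10.99 and 11.05 in starved shControl arrays. After serum it read 10.72 and 10.76 in shCDK8 arrays, against 10.97 and 11.03 in shControl arrays. Every shCDK8 array was below every shControl array. The difference was -0.30 ± 0.06 in starved cells (1.23-fold lower, limma adjusted p = 0.0126), -0.27 ± 0.06 after serum (adjusted p = 0.0212) and -0.28 ± 0.04 over both times (adjusted p = 0.00138). The starved call ended without either starved shCDK8 array (0.0638 and 0.0671) or starved array 2 of shControl (0.0744). The serum call ended without either serum array of shCDK8 (0.105 and 0.0664) or of shControl (0.0711 and 0.14), and the call over both times stood in every alternative. A dimmer probe set for SSRP1 read 6.16 and 6.03 in starved shCDK8 arrays against 6.20 and 6.25 in starved shControl arrays, and 5.75 and 6.02 against 5.99 and 6.26 after serum. It differed by -0.18 ± 0.09 over both times and did not pass among all probe sets (adjusted p = 0.267). With the mean of both SSRP1 probe sets the starved and serum calls ended (0.131 and 0.0719), and with all probe sets tested the serum call did (0.0567). SUPT16H, the large subunit, differed by -0.09 ± 0.05 over both times and did not pass (adjusted p = 0.257).

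The PAF complex rides on the elongating polymerase and is needed for histone marks of transcribed genes. PAF1, the subunit that names it, read 9.43 and 9.43 in starved shCDK8 arrays, against 9.67 and 9.62 in starved shControl arrays. After serum PAF1 read 9.50 and 9.55 in shCDK8 arrays, against 9.76 and 9.78 in shControl arrays. CTR9, its scaffold subunit, read 10.90 and 11.00 in starved shCDK8 arrays, against 11.20 and 11.15 in starved shControl arrays. Both genes were below shControl in all 4 shCDK8 arrays. After serum CTR9 read 10.98 and 10.95 in shCDK8 arrays, against 11.15 and 11.20 in shControl arrays. Over both times PAF1 differed by -0.23 ± 0.04 (limma adjusted p = 0.00391) and CTR9 by -0.22 ± 0.05 (adjusted p = 0.00698), and these calls stood in every alternative. At single times PAF1 passed after serum (-0.25 ± 0.06, adjusted p = 0.0258) and missed in starved cells (-0.21 ± 0.06, 0.0509). CTR9 passed in starved cells (-0.23 ± 0.07, 0.0492) and missed after serum (-0.21, 0.0623). The single-time call of PAF1 ended without either serum array of shCDK8 (0.128 and 0.0684) or of shControl (0.105 and 0.137), with the compared arrays alone (0.0516) and with all probe sets tested (0.0628). That of CTR9 ended without any 1 of the 8 arrays (0.0664 to 0.234), with the compared arrays alone (0.105), with cyclic loess (0.0605) and with all probe sets tested (0.108). LEO1, CDC73 (parafibromin, a tumour suppressor) and RTF1 differed by -0.07, -0.08 and 0.08 over both times and did not pass (adjusted p = 0.392, 0.285 and 0.258).

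TCEA1, the general form of TFIIS, read 9.99 and 10.10 in starved shCDK8 arrays, against 10.21 and 10.16 in starved shControl arrays. After serum it read 10.02 and 9.94 in shCDK8 arrays, against 10.16 and 10.14 in shControl arrays. The lines did not overlap, and the difference over both times was -0.16 ± 0.05 (limma adjusted p = 0.0449). That call stood without starved array 2 of shCDK8 and ended without any 1 of the other 7 arrays (adjusted p 0.0541 to 0.142), with cyclic loess (0.0505) and with all probe sets tested (0.0943). A further TCEA1 probe set gave -0.14 ± 0.04 and did not pass among all probe sets (adjusted p = 0.0997). SUPT6H, the histone chaperone SPT6, differed by -0.08 over both times and did not pass (adjusted p = 0.333). Of the 14 elongation members, 1 was thus higher and 5 lower over both times (42.9% called). Of all genes 23.3% were called, 12% higher and 11.3% lower, and the gap between these shares was not tested.

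Among the 24 Mediator subunits, 1 passed in starved cells (MED20), 1 after serum (MED8) and 6 over both times, 2 higher and 4 lower. These shares were 4.17%, 4.17% and 25%, where 13.4%, 14.2% and 23.3% of all genes were called. The share over both times was thus near the background, and those at single times lay below it. Of the 6 measured head subunits MED20 was higher and MED8 lower, and both sit in the same part of the head. MED20 read 8.32 and 8.26 in starved shCDK8 arrays, against 8.06 and 7.95 in starved shControl arrays. After serum it read 8.25 and 8.37 in shCDK8 arrays, against 8.18 and 8.05 in shControl arrays. The lines did not overlap. The difference was 0.28 ± 0.08 in starved cells (limma adjusted p = 0.0415), 0.19 ± 0.08 after serum (0.151) and 0.24 ± 0.06 over both times (0.0115). The starved call ended without any 1 starved array (0.0652 and 0.204 for shControl arrays 1 and 2, 0.183 and 0.104 for those of shCDK8) or either serum array of shControl (0.0524 each). It also ended with the compared arrays alone (0.058), median centring (0.0544) and all probe sets tested (0.114). Over both times it ended without serum array 2 of shControl (0.0502). MED8 read 7.40 and 7.41 in starved shCDK8 arrays, against 7.61 and 7.57 in starved shControl arrays. After serum MED8 read 7.42 and 7.21 in shCDK8 arrays, against 7.57 and 7.61 in shControl arrays. Its shCDK8 arrays were all below shControl, with serum array 2 of shCDK8 the lowest. The difference was -0.28 ± 0.08 after serum (adjusted p = 0.0426) and -0.23 ± 0.06 over both times (0.0134). The call over both times stood in every alternative. The serum call stood without serum array 1 of shCDK8 and ended without any 1 of the other 7 arrays (0.0582 to 0.244), with the compared arrays alone (0.0907) and with all probe sets tested (0.116). MED22, a further head subunit, missed by little over both times (-0.19 ± 0.06, adjusted p = 0.0503). It read 7.45 and 7.56 in starved shCDK8 arrays against 7.68 and 7.90 in starved shControl arrays, and 7.46 and 7.52 against 7.54 and 7.61 after serum. MED11, MED17 and MED18 differed by -0.07, 0.09 and 0.12 over both times and did not pass.

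Of the 9 middle subunits, MED21 and MED1 were lower over both times, and no middle subunit passed at a single time. MED21, which pairs with MED7 in the hinge of the complex, read 8.35 and 8.54 in starved shCDK8 arrays, against 8.76 and 8.67 in starved shControl arrays. With serum MED21 read 8.63 and 8.60 in shCDK8 arrays, against 8.80 and 8.93 in shControl arrays. The difference over both times was -0.26 ± 0.06 (limma adjusted p = 0.0102) and stood in every alternative. MED7 differed by 0.07 and did not pass. MED1, the subunit that binds nuclear receptors, read 9.31 and 9.46 in starved shCDK8 arrays, against 9.53 and 9.63 in starved shControl arrays. After serum MED1 read 9.51 and 9.45 in shCDK8 arrays, against 9.62 and 9.65 in shControl arrays. All shCDK8 arrays lay below all shControl arrays, and the difference of -0.17 ± 0.05 (adjusted p = 0.037) ended without either serum array of either line (0.0589 to 0.108), starved array 1 of shCDK8 (0.125) or starved array 2 of shControl (0.112), and with all probe sets tested (0.0886). MED26, the docking subunit for elongation factors, differed by 0.13 ± 0.05 over both times and did not pass (adjusted p = 0.136). MED4, MED9, MED10, MED19 and MED31 differed by -0.12 to 0.04 and did not pass. MED14, the scaffold, differed by -0.04 (adjusted p = 0.608).

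Of the 8 measured tail subunits, MED23 was higher and MED29 lower over both times. MED23, the target of the serum-activated factor ELK1, read 8.45 and 8.51 in starved shCDK8 arrays, against 8.33 and 8.30 in starved shControl arrays. With serum MED23 read 8.53 and 8.58 in shCDK8 arrays, against 8.40 and 8.43 in shControl arrays. The lines did not overlap, but the difference of 0.15 ± 0.04 (limma adjusted p = 0.0368) ended without any 1 of the 8 arrays (0.0571 to 0.116), with median centring (0.0636) and with all probe sets tested (0.0723). MED29 read 8.20 and 8.34 in starved shCDK8 arrays, against 8.46 and 8.43 in starved shControl arrays. After serum MED29 read 8.30 and 8.36 in shCDK8 arrays, against 8.55 and 8.52 in shControl arrays. Its difference was -0.19 ± 0.05 (adjusted p = 0.0198), and the call ended without any 1 of 5 arrays, namely array 1 of each group and serum array 2 of shControl (0.0505 to 0.0739), and with all probe sets tested (0.0528). MED15, MED16, MED24, MED27, MED28 and MED30 differed by -0.16 to 0.11 and did not pass. The MED27 probe set used was dim, at 6.19 to 6.58. Its serum-treated shControl arrays had the largest SD between duplicates of all members (0.263). MED27 has a further probe set that the annotation also gives to CRSP8P, which is kept apart and read 8.26 to 8.59. That set differed by -0.17 ± 0.06 (limma adjusted p = 0.142 among all probe sets).

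**Figure D2:**
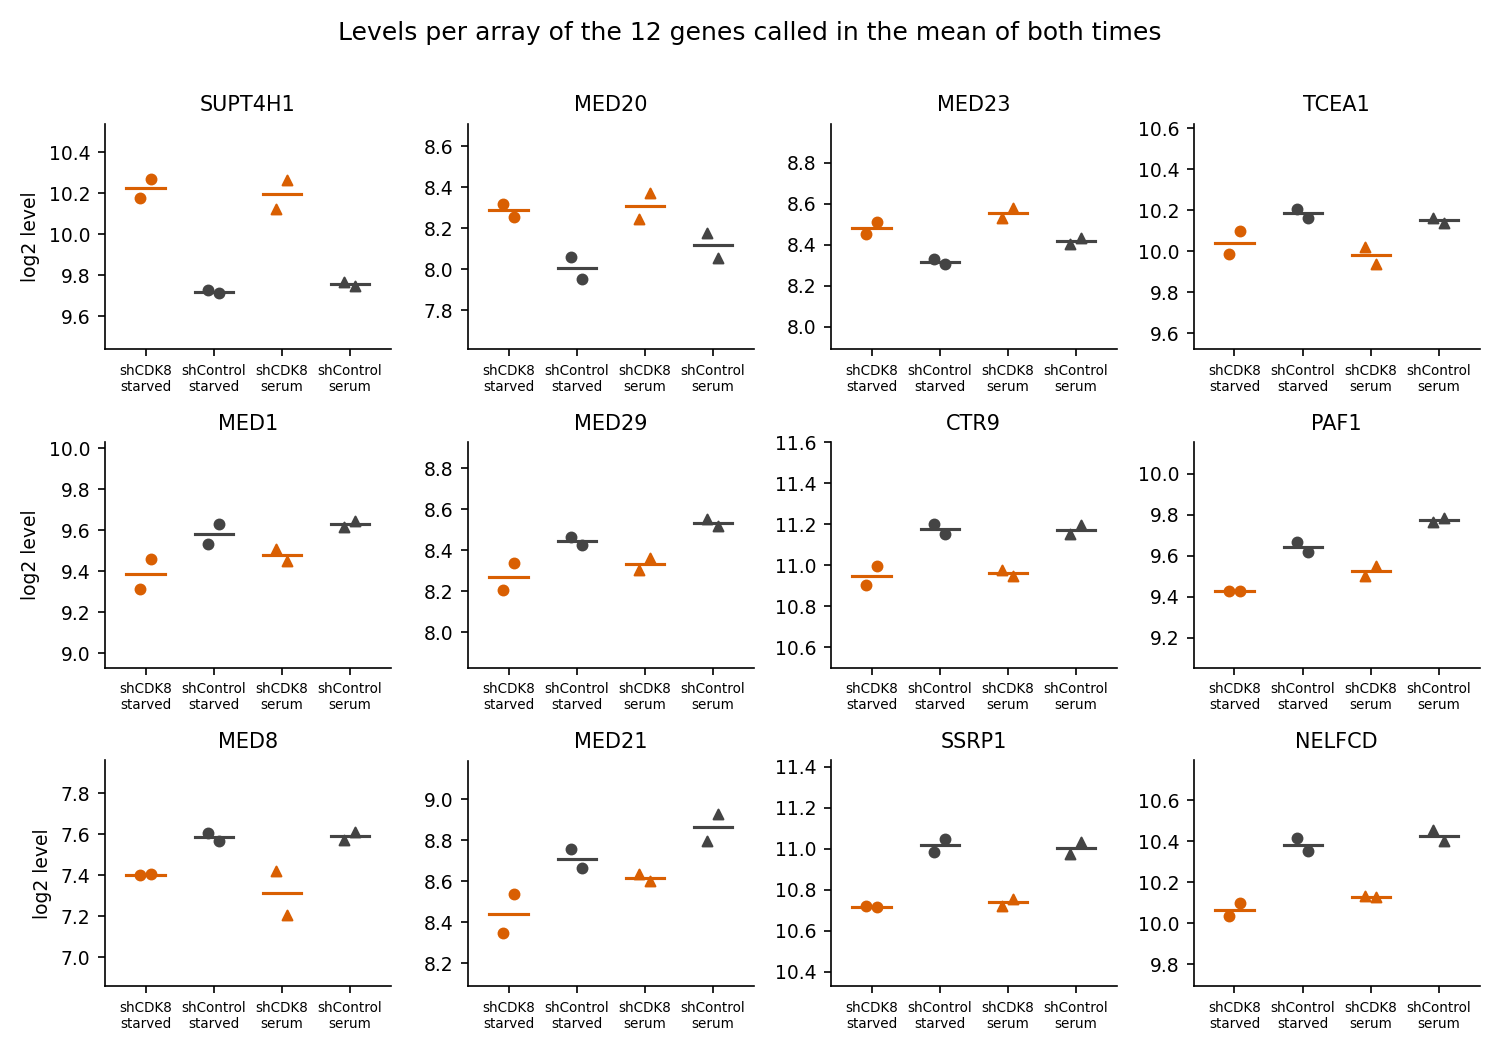
Log2 level on each array (y axis) for the 12 genes called in the mean of both times, with shCDK8 (orange) left of shControl (grey) at each time, circles for starved and triangles for serum-treated cells, and bars at the means of 2 arrays. All panels span the same range of 1.1 log2 units with the axis not starting at 0. In each gene the 4 shCDK8 arrays lie on 1 side of the 4 shControl arrays. The genes were called on these same arrays, which favours such a separation.

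Over all 38 members, the 4 shCDK8 arrays lay wholly above the 4 shControl arrays in 5 genes and wholly below in 10. These were the 12 called genes with SUPT5H, RTF1 and MED28, and across all genes 13% lay wholly above and 12.5% wholly below. The calls at single times depended on single arrays more than those over both times. Calls over all genes also fell in each of these comparisons whichever array was left out, so the fall was not particular to the members. The starved count of 5 was 1 without starved array 1 of shCDK8, 2 without starved array 2 of shControl, and 3 without the second starved array of shCDK8, starved array 1 of shControl or either serum array of shControl. The serum count of 5 was 1 without serum array 2 of shCDK8 or either serum array of shControl, and 2 without serum array 1 of shCDK8. The count of 12 over both times was 7 without serum array 2 of shControl.

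The second comparison asked whether 30 min of serum moved these genes. None of the 38 members passed the test in either line. Of all genes 0.255% were called in shCDK8 cells and 0.462% in shControl cells. At an unadjusted p below 0.05, 1 member passed in shCDK8 cells (CDC73), against 9.59% of all genes, and 1 in shControl cells (MED22), against 9.02% of all genes. The 95% interval of every member's change lay within 1.5-fold either way in both lines, and the largest change was 1.16-fold. The median change was 0.01 in each line. In the mean of both lines the count was again 0, where 0.76% of all genes were called, with 5 members at an unadjusted p below 0.05, against 14.5% of all genes.

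The largest serum changes did not pass. MED21 read 8.63 and 8.60 with serum against 8.35 and 8.54 starved in shCDK8 arrays, and 8.80 and 8.93 against 8.76 and 8.67 in shControl arrays. Its change was 0.17 ± 0.08 in shCDK8 and 0.15 ± 0.08 in shControl cells, and 0.16 ± 0.06 as the mean of both lines (limma adjusted p = 0.266). MED17, a central head subunit, read 9.34 and 9.29 with serum against 9.18 and 9.25 starved in shCDK8 arrays, and 9.27 and 9.23 against 9.15 and 9.04 in shControl arrays. Serum and starved arrays did not overlap for either gene in either line. The same held for PAF1 and MED23, which read above with serum, and for MED9 and NELFA, which read below. How many of all genes did so was not counted, so the separation is not read as a serum effect on these members. CDC73 read 9.47 and 9.44 with serum against 9.24 and 9.32 starved in shCDK8 arrays, and 9.50 and 9.44 against 9.49 and 9.37 in shControl arrays. Its 0.17 ± 0.07 in shCDK8 cells did not pass (adjusted p = 0.498). PAF1 changed by 0.10 ± 0.06 in shCDK8 and 0.13 ± 0.06 in shControl cells, without passing. SUPT6H changed by 0.11 ± 0.07 in shCDK8 cells without passing, reading 10.12 and 10.04 with serum against 9.91 and 10.03 starved in shCDK8 arrays, and 10.08 and 10.14 against 10.07 and 10.12 in shControl arrays.

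On the lower side, MED9, a middle subunit, read 7.23 and 6.90 with serum against 7.26 and 7.27 starved in shCDK8 arrays, and 7.14 and 7.13 against 7.24 and 7.29 in shControl arrays. Its change was -0.17 ± 0.07 as the mean of both lines (limma adjusted p = 0.314), with serum array 2 of shCDK8 the lowest reading. MED10, also of the middle, read 8.51 and 8.54 with serum against 8.65 and 8.73 starved in shCDK8 arrays, and 8.60 and 8.41 against 8.75 and 8.50 in shControl arrays, where the groups overlapped. MED22 changed by -0.01 in shCDK8 cells and by -0.22 ± 0.08 in shControl cells (adjusted p = 0.498). NELFA changed by -0.13 ± 0.06 in shCDK8 and -0.09 in shControl cells, reading 8.57 and 8.55 with serum against 8.64 and 8.73 starved in shCDK8 arrays, and 8.64 and 8.67 against 8.74 and 8.74 in shControl arrays. SUPT4H1, the member with the clearest difference between lines, changed by -0.03 in shCDK8 and 0.04 in shControl cells.

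**Figure D3:**
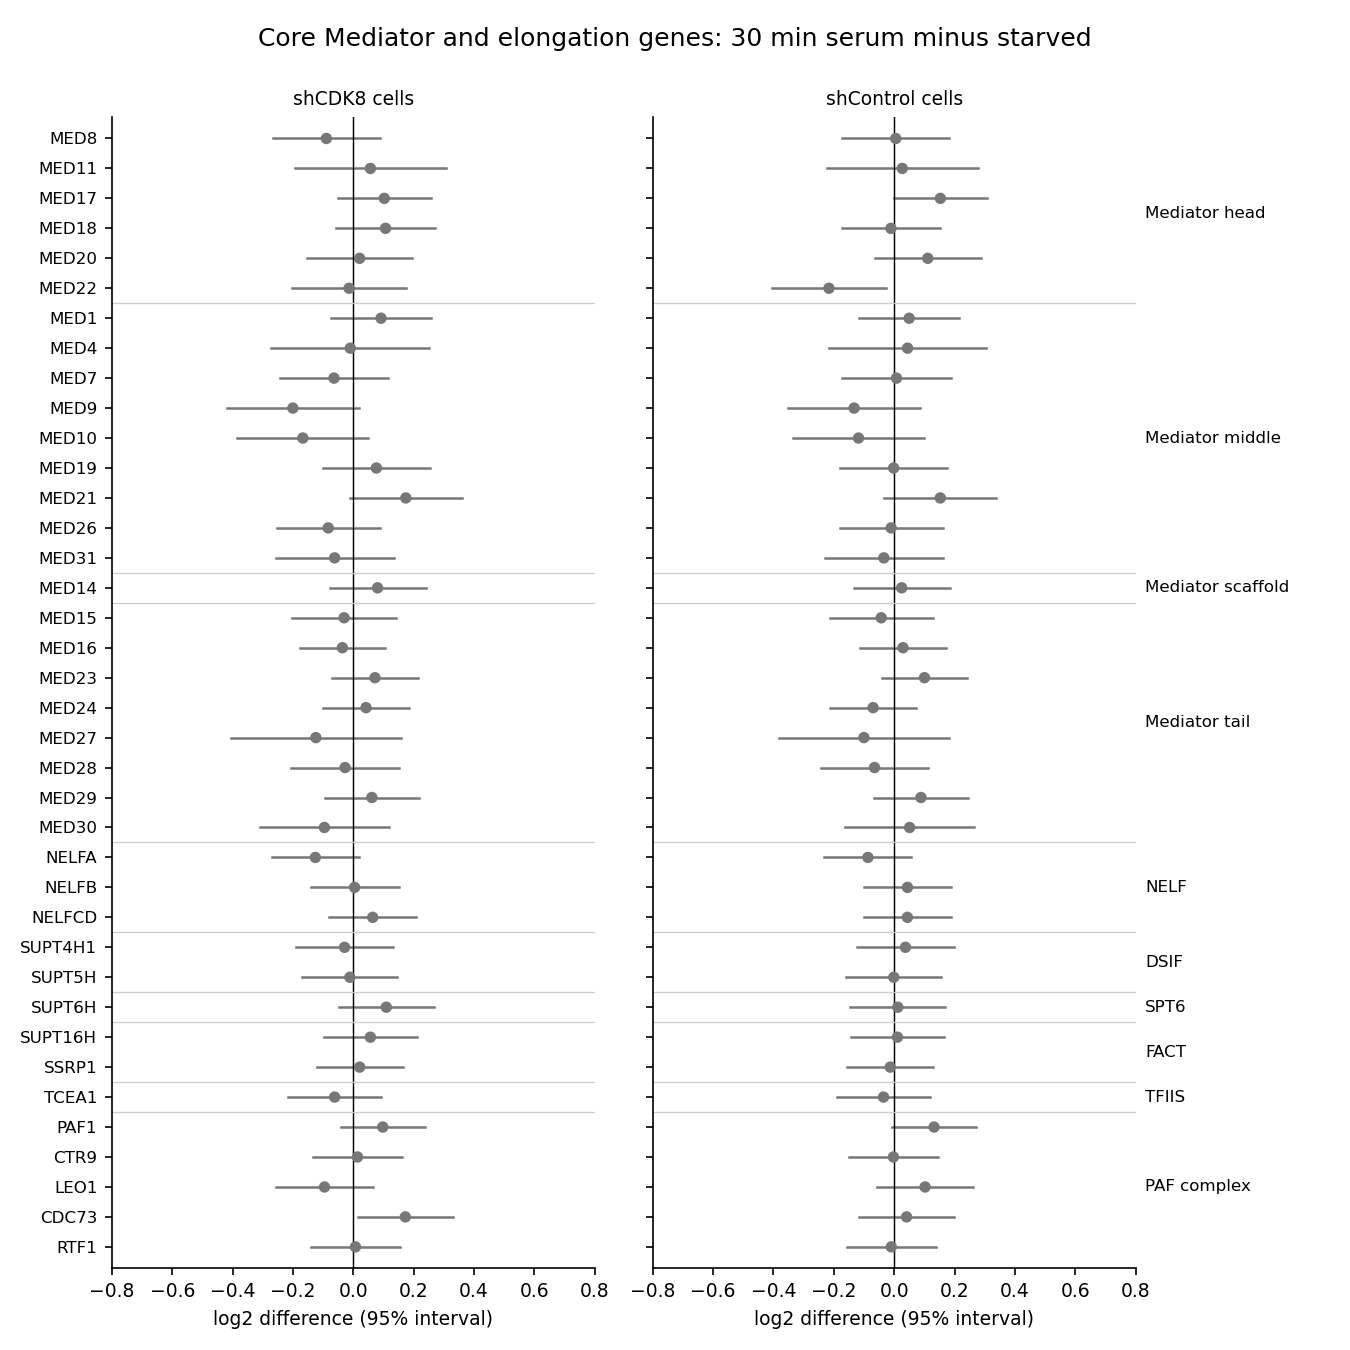
Serum-treated minus starved difference (log2, x axis) for each of the 38 measured genes (rows, grouped by complex) in shCDK8 and in shControl cells. Points are fitted differences and lines 95% intervals without adjustment for many genes; all points are grey because none was called, and the largest is -0.22 for MED22 in shControl cells.

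The third comparison asked whether the lines' serum responses differed. No member passed limma's test of the difference, and neither did any of the 18417 genes (0% called). At an unadjusted p below 0.05 there were 0 of 38 members, against 3.82% of all genes. The largest differences were those of MED22 (0.20 ± 0.12) and LEO1 (-0.20 ± 0.10, unadjusted p = 0.0785 by limma). LEO1 read 9.09 and 9.02 with serum against 9.08 and 9.22 starved in shCDK8 arrays, and 9.20 and 9.24 against 9.10 and 9.14 in shControl arrays. MED30 differed by -0.15 ± 0.14, reading 6.80 and 6.60 with serum against 6.77 and 6.83 starved in shCDK8 arrays, and 6.95 and 6.74 against 6.85 and 6.73 in shControl arrays, where the groups overlapped in both lines. CDC73 differed by 0.13 ± 0.10 and MED8 by -0.09 ± 0.11. MED18, a head subunit, differed by 0.12 ± 0.10, reading 7.25 and 7.31 with serum against 7.24 and 7.11 starved in shCDK8 arrays, and 7.09 and 7.10 against 7.05 and 7.16 in shControl arrays. The 95% intervals of the members' differences reached from -0.45 (MED30) to 0.47 (MED22).

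Other genes of the transcription machinery were read beside the members, in the mean of both times between lines. Of the 29 other elongation factors measured, 4 were higher and 9 lower in shCDK8 cells (median -0.05). The largest were AFF4, the scaffold of the super elongation complex (-2.02 ± 0.07), TCEA3, a tissue-restricted relative of TCEA1 (-0.89 ± 0.07), PCF11, a termination factor (0.52 ± 0.05), and SPTY2D1 (-0.48 ± 0.05). AFF4 read 7.32 and 7.26 in starved shCDK8 arrays, against 9.14 and 9.38 in starved shControl arrays. Of 29 general transcription factors 3 were higher and 7 lower, led by the TFIID subunits TAF5 (-0.72 ± 0.07) and TAF12 (-0.45 ± 0.05). TAF13, also of TFIID, went the other way. It read 8.42 and 8.47 in starved shCDK8 arrays against 8.15 and 7.90 in starved shControl arrays, and 8.61 and 8.58 against 8.35 and 8.27 after serum. Of 12 RNA polymerase II subunits POLR2H was lower (-0.18 ± 0.05) and none higher. Of the 6 measured subunits of the kinase module CCNC was lower (-0.21 ± 0.05) and none higher. In this order, the shares called in the 4 lists were 44.8%, 34.5%, 8.33% and 16.7%, against 23.3% of all genes. No gene of these 4 lists passed the serum test in either line. Beside them the members' differences ran from -0.31 to 0.47.

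**Figure D4:**
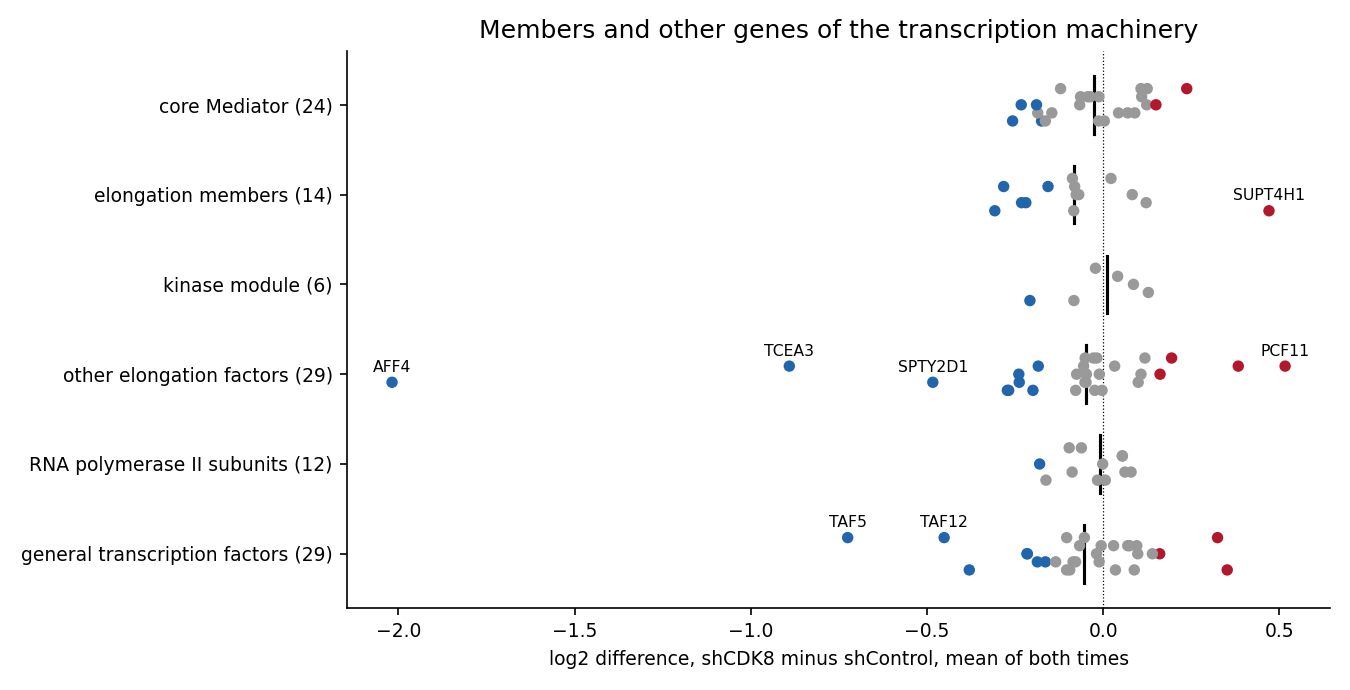
Difference between shCDK8 and shControl cells as the mean of both times (log2, x axis) for each measured gene (points, spread vertically within a list for legibility) of the core Mediator and elongation members and of 4 other lists, with the number of genes in brackets. Black bars are list medians, red and blue mark genes called higher and lower in shCDK8 cells, grey marks those not called, and genes beyond 0.45 either way are named; AFF4 lies at -2.02, far outside the members' range.

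Gene order added a description that the choice of members did not use. On chromosome 19, PAF1, MED29, ZFP36, PLEKHG2, RPS16 and SUPT5H follow each other among protein-coding genes in RefSeq. PAF1 and MED29 start 272 bases apart in opposite directions, and 229 bases of their upstream windows are shared. PAF1 and MED29 were both lower in shCDK8 cells over both times (-0.23 and -0.19), as were ZFP36 (-0.97 ± 0.05) and PLEKHG2 (-0.37 ± 0.06). SAMD4B, on the other side of PAF1, was higher (0.17 ± 0.05, limma adjusted p = 0.0315). RPS16 and SUPT5H did not pass, at -0.03 and 0.12. ZFP36, an immediate-early gene that destabilises mRNAs, rose with serum by 1.70 ± 0.07 in shCDK8 cells and 1.89 ± 0.07 in shControl cells. MED29, which lies next to it, changed by 0.06 and 0.09 without passing. On chromosome 17, MED1 adjoins CDK12, a kinase of the elongating polymerase, which was lower over both times (-0.27 ± 0.06, adjusted p = 0.00793). FBXL20, on the other side of MED1, differed by 0.18 ± 0.07 without passing (adjusted p = 0.12). These neighbours were chosen after the values were seen.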

How the data were processed

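Total RNA from 8 HCT116 samples was labelled with biotin and measured on Affymetrix arrays, per the labels' protocols. The deposited values are log2 probe set summaries made with RMA (background correction, quantile normalization and summary), per the submitters' processing notes. The sources used here give neither its version nor a genome build, and do not say if all arrays were normalized as 1 set. The table held 33297 probe sets, of which 19460 were annotated with 1 gene, 1754 with more than 1, and 12083 had no entry. For 19429 the Entrez identifier matched the RefSeq table (GRCh38.p14). For genes with several probe sets the one with the highest mean was used, which left 18417 genes.

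A model of 4 group means was fitted to all genes with limma 3.58.1 in R 4.3.3 (4 residual and 5.49 prior degrees of freedom) for 7 contrasts. Tests were two-sided, with Benjamini-Hochberg adjustment across all genes, and a gene was called at an adjusted p below 0.05. Rose, fell, higher and lower refer to that test, and 95% intervals are per gene. The fit was tested on simulated shifts. Alternatives were an intensity trend, the compared arrays by themselves, a block for the replicate number, removal of the dimmest 25% of genes, cyclic loess, median centring, the mean of probe sets, all probe sets as features, and leaving out each array; a crossed block was chosen after seeing the data. Each such fit took the lone array of its group to vary as the other groups did. All members were named. Per-array values were given for members past the threshold and for the 3 highest and 3 lowest changes of a contrast with fewer calls, and up to 4 genes per other list. The members and lists were chosen with earlier results of these data known. The number of arrays limits the precision. Figures were drawn with matplotlib 3.10.9.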

Additional observations from a re-analysis of the deposited data

How the results depend on the processing

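No member's called difference changed sign under any alternative, and 9 of the 22 calls stood under all of them: SUPT4H1 in the 3 line comparisons, and NELFCD, SSRP1, PAF1, CTR9, MED8 and MED21 over both times. In starved cells 5 members and 2470 of all genes were called. These counts became 9 and 3139 with an intensity trend, and 8 and 2760 with dim genes left out. They became 3 and 1963 with the compared arrays alone, and 3 and 1429 with all probe sets as features. After serum the 5 members and 2624 genes became 10 and 3369 with the trend. They became 3 and 2314 with the compared arrays alone, and 2 and 1538 with all probe sets. In these settings the counts over all genes thus moved in the same direction as those of the members. With the mean of probe sets they did not. That setting gave 4 members and 2472 genes in starved cells, and 4 and 2629 after serum. Over both times it gave 13 and 4283, against 12 and 4297 in the main fit. Leaving out 1 array gave 1 to 4 in starved cells, 1 to 4 after serum and 7 to 11 of the 12 over both times. The serum comparisons and the difference of responses gave 0 members under every setting, the leave-outs included. With the replicate number as a block 4, 4 and 12 members were called in starved cells, after serum and over both times. The deviations of same-numbered arrays correlated between groups with r from -0.187 to 0.126, so the numbers were not taken as pairs. The block ended the calls of MED20 (adjusted p = 0.0542) and CTR9 (0.0668) in starved cells, MED8 after serum (0.0515) and TCEA1 over both times (0.061), while MED22 passed with it in starved cells and over both times. With the numbers of the starved shControl arrays crossed, a block chosen after seeing the data, the counts were 4, 4 and 11. Over all genes that block gave 2456, 2652 and 4359, above the main fit after serum and over both times. MED22 passed in starved cells and over both times with the trend, the block, dim genes left out, cyclic loess, median centring and without starved array 1 of shControl. The median over all genes lay within 0.0311 of 0 in every contrast and setting. The cause of these shifts was not tested. Signal over background could not be read from the summarised values.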
